A study of Rattus norvegicus with 12 samples.

Results

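The 44 genes described here encode the machinery that copies DNA before a cell divides. They were chosen by symbol, from a list that covers origin licensing, the replicative helicase, the polymerases, the sliding clamp and its loader, single-strand binding, lagging-strand joining and the supply of DNA building blocks. Every symbol was found among the 33801 genes of the deposited table, and all 44 reached the level set for testing (at least 1 FPKM in at least 3 libraries), as did 15268 genes in all. FPKM counts fragments per kilobase of gene, scaled by a depth factor for each library. A symbol that stood on several rows was taken from the row with the highest mean FPKM, which mattered for Cdc45, described below with both of its rows.

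The tissue was rat bone, cut out over a diameter of 4 mm around a mini-implant at the site of the upper first molar. Implants were of titanium (labelled cpTi) or of the zirconium-based alloy Zr58Cu25Al14Nb3 (labelled Nb3, called Nb3 alloy here), and were either put under cyclic loading for 2 weeks or left static. All animals were wild type, and by the labels the 4 groups differ only in implant material and loading, and each of the 4 combinations has 3 libraries. No intact bone without an implant is among them, and the sources used here do not give the strain, age or sex of the rats. The labels do not tie the replicates of a group to separate rats, so p-values measure only the spread between these libraries. A piece of bone taken this way holds marrow and soft tissue as well as bone cells, and in such bulk samples fewer cells of a type and less RNA per cell cannot be told apart.

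Cells copy their DNA from many start points, called origins. In G1 phase the origin recognition complex (ORC), with Cdc6 and Cdt1, places the ring-shaped MCM helicase on DNA as an inactive pair, and geminin later blocks Cdt1 so that no origin fires again in the same cycle. In S phase Cdc45 and the GINS complex join MCM to form the active helicase, and polymerase alpha with primase lays down primers that polymerases epsilon and delta extend on the PCNA clamp. Most of these genes are transcribed as cells enter S phase, largely through E2F transcription factors that are held back by retinoblastoma proteins in resting cells. In bone, the cells that divide most are blood precursors in the marrow, while osteocytes do not divide.

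Promoters of the genes are shown because many of them share the letters that E2F factors bind. RefSeq promoter windows (build GRCr8, 250 bases before to 50 bases after the annotated start) matched 37 of the 44 genes by symbol. Orc1, Orc4, Cdc6, Mcm4, Gins4, Rpa3 and Rrm2 had no entry. The E2F-like letters searched were TTTCCCGC, TTTCGCGC, TTTGCCGC and TTTGGCGC on both strands, which may overlap each other where a site reads the same on both strands. The lines below give the stretch around the match that lies before the start site, 5′ to 3′ on the strand of the gene, with the matching letters in capitals.
Mcm2 (chr4:122918095-122918130, minus strand): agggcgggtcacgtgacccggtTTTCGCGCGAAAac
Mcm5 (chr19:13488779-13488812, plus strand): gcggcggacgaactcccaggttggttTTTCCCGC
Mcm6 (chr13:42404454-42404513, minus strand): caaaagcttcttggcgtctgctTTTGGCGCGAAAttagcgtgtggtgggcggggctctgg
Mcm7 (chr12:22163197-22163256, minus strand): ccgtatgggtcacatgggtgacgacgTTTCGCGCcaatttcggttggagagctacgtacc
Gins1 (chr3:160184873-160184919, plus strand): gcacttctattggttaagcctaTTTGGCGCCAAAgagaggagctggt
Gins3 (chr19:9434682-9434741, minus strand): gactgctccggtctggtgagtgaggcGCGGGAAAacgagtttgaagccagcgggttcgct
Tyms (chr9:120776087-120776146, minus strand): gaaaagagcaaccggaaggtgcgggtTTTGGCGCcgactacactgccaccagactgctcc
Pola1 (chrX:62342494-62342553, minus strand): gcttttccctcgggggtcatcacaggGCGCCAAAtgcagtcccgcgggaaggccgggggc
Orc3 (chr5:53977856-53977915, minus strand): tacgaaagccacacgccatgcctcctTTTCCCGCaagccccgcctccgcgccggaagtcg
Orc5 (chr4:13440131-13440190, plus strand): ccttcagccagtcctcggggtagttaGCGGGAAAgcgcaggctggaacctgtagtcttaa
The E2F-like letters stood in 18 of the 37 windows (48.6%), against 618 of all 27457 windows of this length (2.25%) and 484 of the 17790 windows within the GC range of the 37 (2.72%). These counts include matches at or after the start. Cdt1, Gmnn, Mcm3, Pole, Pole2, Rfc3, Rpa2 and Lig1 had no match wholly before it, so no stretch is printed for them. CCAAT, the letters bound by the factor NF-Y, stood in 22 of the 37 (59.5%) and in 37.7% of all windows. The GC box GGGCGG, bound by Sp1, stood in 24 (64.9%) and in 34.9% of all windows, or 40.7% of those within the same GC range. In Mcm2, Mcm6 and Gins1 the E2F-like letters read on both strands and overlap. A match is a description of the letters, not evidence of a bound site.

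Some libraries stood apart before any comparison was made. The 3 loaded Nb3-alloy libraries held 16.8 to 22.3 M reads on genes, of which 11.3% to 24.3% were mitochondrial, against 12.9 to 15.9 M reads and 4.31% to 6.86% in the other 9. They correlated with the other 9 at 0.731 to 0.866 across all tested genes, while those 9 correlated with each other at 0.932 to 0.969. Within groups, loaded cpTi replicate 2 was the lowest of its 3 libraries for 42 of the 44 replication genes, and non-loaded Nb3-alloy replicate 1 was the lowest of its 3 for 43. The same counts over all tested genes are not given here. A shift of a whole library therefore cannot be told apart from a shift of these genes. The summed level of 10 osteoblast and osteocyte genes, with Col1a1 and Col1a2 among them, lay between 4238 and 23208 FPKM in the 12 libraries. A sum does not show that each of these genes was present.

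Beside the Nb3 alloy, RNA of nearly the whole replication machinery was lower with loading. By the row rule 42 of the 44 genes fell and 1 row rose, on a background in which 25.2% of all tested genes were called lower and 20.7% higher. The median log2 difference was -2.02 over the 44 genes and -0.02 over all tested genes. The libraries of the loaded and non-loaded samples did not overlap for the 42 genes that fell, and loaded libraries lay below non-loaded ones without overlap for 28% of all tested genes. With the Cdc45 row that matches the CDC45 protein, 43 of 44 fell and none rose, and the remaining gene was Orc4. Over those 44 the mean level beside loaded implants was 3.51% to 98.3% of the level beside non-loaded implants, with a median of 19.95%. The median level of the 44 genes was 6.12, 6.36 and 5.69 FPKM in the 3 loaded Nb3-alloy libraries and 18.2, 27.4 and 27.6 FPKM in the non-loaded ones, of which replicate 1 was the low one. Beside cpTi it was 20.2, 16.2 and 21.2 FPKM with loading and 26.3, 24.1 and 23.2 FPKM without. Tests were made with limma on log2(FPKM + 1) with Benjamini-Hochberg adjustment over all 15268 tested genes, and differences below are on that log2 scale, on which low genes appear to change less than they do. Without loaded Nb3-alloy replicate 2, the library with the most mitochondrial reads, 41 genes were called lower and the median was -1.97. Scaling to total reads moved the median of all genes to -0.17 and the calls over all genes from 3840 lower and 3156 higher to 4679 lower and 2265 higher, while 42 of the 44 replication genes were still called lower.

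**Figure D1:**
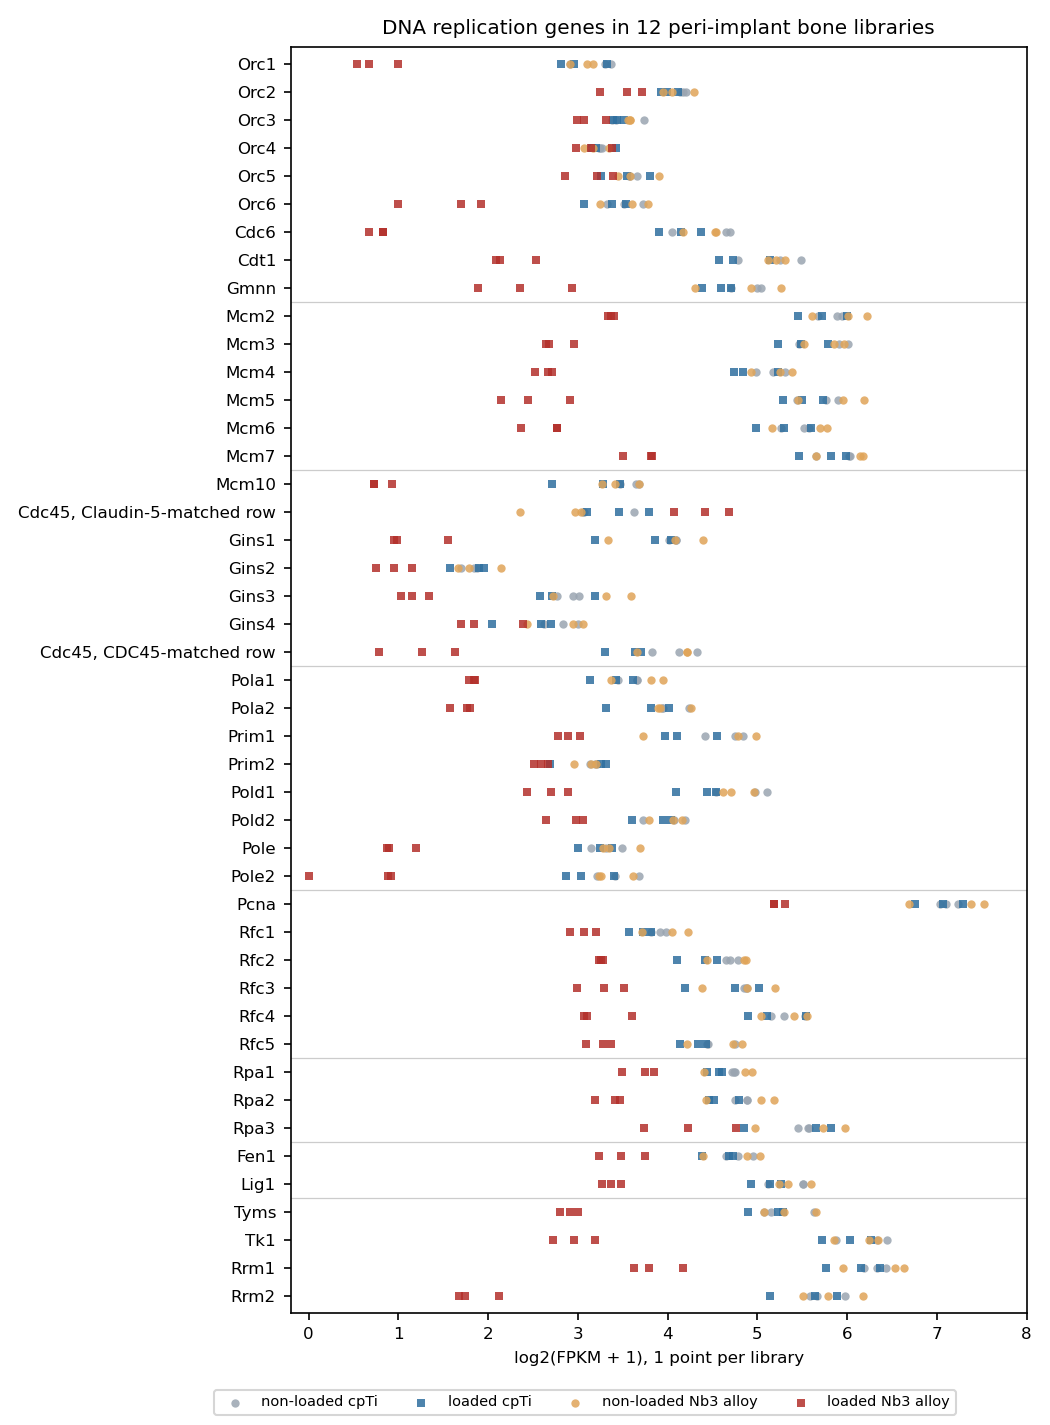
Levels of the 44 replication genes as log2(FPKM + 1), with 1 point per library and 1 line per gene, in the order of their roles; Cdc45 has a line for each of its 2 rows. Loaded Nb3-alloy libraries (red squares) lie left of the other 3 groups for most genes, overlap them for Orc4, and lie right of them for the Cdc45 row that matches Claudin-5.

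Markers of other cells moved with these genes, and their part in the result was not tested. The summed level of 10 mitosis genes was 23.9 to 26.6 FPKM in the loaded and 408 to 571 FPKM in the non-loaded Nb3-alloy libraries, and all 10 were called lower. Of the erythroid markers, 9 symbols were found and all 9 fell, from a summed 2150 to 2717 FPKM to 33.8 to 64.4 FPKM. All 8 tested markers of granulocyte precursors fell, from 2025 to 4630 to 11.6 to 33.9 FPKM over the 9 found, of which Ltf was at 0 in all 3 non-loaded Nb3-alloy and all 3 loaded cpTi libraries. All 10 markers of B-cell precursors fell, from 338 to 625 to 64.7 to 84.1 FPKM. In the other direction, 9 of 10 fibroblast and ligament markers rose (272 to 422 to 2611 to 4123 FPKM, as ranges without and with loading). So did 7 of 8 endothelial markers (98.6 to 142 and 291 to 529 FPKM). Over all tested genes 25.2% were called lower and 20.7% higher. Counts near or below those shares were found for the remaining lists. Of 10 osteoblast and osteocyte markers 2 rose, of 8 macrophage markers 2 rose and 1 fell, and of 4 tested epithelial markers 1 fell. The summed level of the 8 epithelial symbols found varied widely between loaded Nb3-alloy libraries, at 5.07, 80.5 and 22.1 FPKM. In the non-loaded Nb3-alloy libraries it was 13.9 to 18.4 FPKM.

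**Figure D2:**
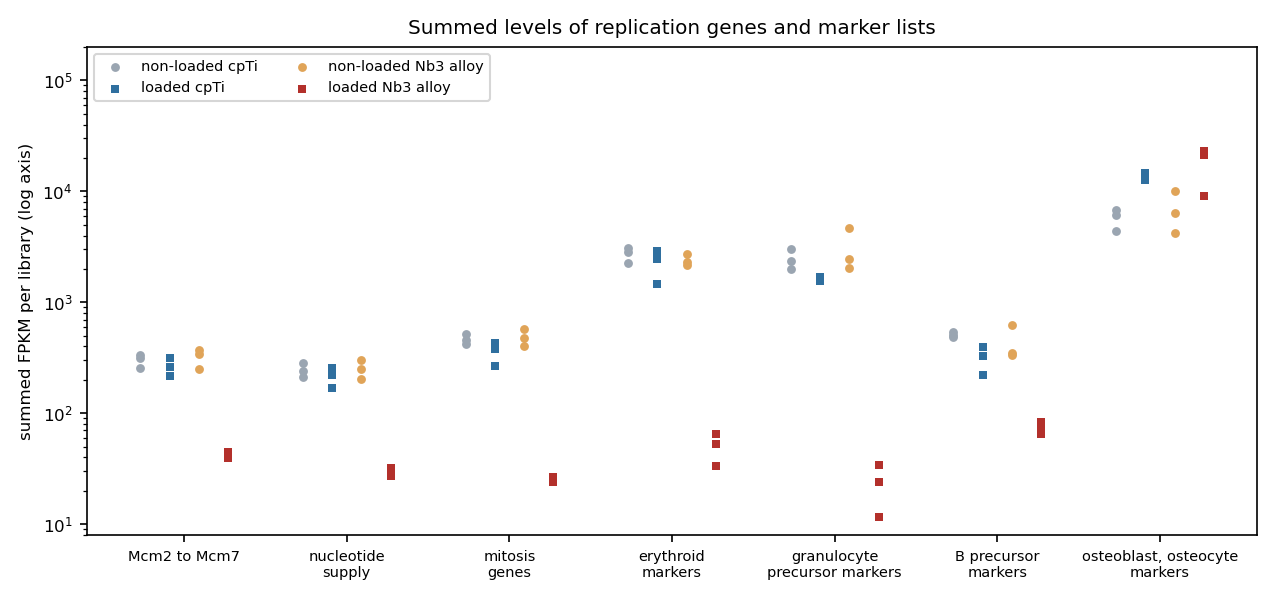
Summed FPKM of Mcm2 to Mcm7, of the 4 building-block genes and of marker lists, on a log axis, with 1 point for each of the 12 libraries. In the loaded Nb3-alloy libraries the erythroid sum lies at 33.8 to 64.4 FPKM and the mitosis sum at 23.9 to 26.6 FPKM, below every other library.

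Of the 9 origin licensing genes 8 were called lower beside loaded Nb3 alloy, against 25.2% of all tested genes. Their steps differed widely in size. Cdc6 (ENSRNOG00000027787, chromosome 10, 83864638 to 83878011 in the deposited table; the sources used here name no build), the ATPase that closes ORC around DNA, fell most of all 44 in proportion to its level. It measured 0.771, 0.601 and 0.777 FPKM beside loaded and 16.96, 22.1 and 22.2 FPKM beside non-loaded Nb3 alloy, and 19.7, 13.96 and 16.7 FPKM beside loaded and 24.9, 24.03 and 15.6 FPKM beside non-loaded cpTi. The 3 libraries of loaded Nb3 alloy were far below the other 9, with a mean 28.5-fold lower than without loading and a log2 difference of -3.63 (SE 0.19, adjusted p = 3.39e-07). Cdt1, which brings MCM to ORC and Cdc6, went from 36.03 ± 2.43 to 3.81 ± 0.851 FPKM (SD, n = 3 each; -2.96), and Gmnn, which encodes its inhibitor geminin, from 28.5 ± 9.33 to 4.48 ± 1.99 FPKM (-2.44).

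The 6 ORC subunits did not move together. Orc1, the subunit whose protein rises and falls with the cell cycle, measured 0.996, 0.6004 and 0.455 FPKM beside loaded and 6.54, 8.02 and 7.56 FPKM beside non-loaded Nb3 alloy, and 9.04, 6.03 and 6.79 FPKM beside loaded and 8.85, 9.36 and 6.54 FPKM beside non-loaded cpTi. Its loaded Nb3-alloy libraries were all below 1 FPKM and its log2 difference was -2.32 (SE 0.19, adjusted p = 4.49e-06). Orc6, a loosely held subunit, measured 2.25, 0.9903 and 2.78 FPKM beside loaded and 8.51, 12.7 and 11.1 FPKM beside non-loaded Nb3 alloy, and 10.6, 7.42 and 9.41 FPKM beside loaded and 10.4, 12.2 and 8.99 FPKM beside non-loaded cpTi. It also fell without overlap, by 2.01 (SE 0.24, adjusted p = 7.8e-05). The subunits Orc2 to Orc5, which with Orc1 form the ring around DNA, were much closer between the groups. Orc2 measured 10.7, 8.52 and 12.1 FPKM beside loaded and 14.4, 18.7 and 15.5 FPKM beside non-loaded Nb3 alloy, and 14.98, 14.2 and 16.3 FPKM beside loaded and 17.02, 17.4 and 16.6 FPKM beside non-loaded cpTi. Orc3 measured 6.93, 8.92 and 7.38 FPKM beside loaded and 10.8, 10.97 and 11.01 FPKM beside non-loaded Nb3 alloy, and 9.48, 9.83 and 10.4 FPKM beside loaded and 9.75, 9.42 and 12.4 FPKM beside non-loaded cpTi. Both lay below the non-loaded Nb3-alloy libraries without overlap, by small steps of -0.59 (SE 0.14, adjusted p = 0.00443) and -0.45 (SE 0.13, adjusted p = 0.0124). Orc5 measured 9.53, 6.27 and 8.27 FPKM beside loaded and 9.89, 14.02 and 10.9 FPKM beside non-loaded Nb3 alloy, and 12.9, 8.57 and 10.7 FPKM beside loaded and 10.9, 11.6 and 10.9 FPKM beside non-loaded cpTi. Its difference of -0.49 (SE 0.18, adjusted p = 0.045) was close to the threshold. The call ended without the filter on low values (adjusted p = 0.0715), after quantile normalization (0.128), with the replicate block (0.07) and when only the Nb3-alloy libraries were fitted (0.0985). It also ended when any of 8 of the 12 libraries was left out, with adjusted p between 0.0579 and 0.159 (loaded Nb3-alloy replicates 2 and 3, non-loaded Nb3-alloy replicates 2 and 3, loaded cpTi replicate 3 and all 3 non-loaded cpTi libraries). Orc4 (ENSRNOG00000005021, chromosome 3, 33294355 to 33333824) measured 6.88, 7.85 and 9.398 FPKM beside loaded and 7.36, 9.201 and 7.99 FPKM beside non-loaded Nb3 alloy, and 8.18, 9.71 and 7.94 FPKM beside loaded and 8.39, 8.61 and 8.496 FPKM beside non-loaded cpTi. All 4 groups overlapped for Orc4, and its log2 difference of -0.03 (SE 0.13, adjusted p = 0.884), with a 95% interval of -0.32 to 0.26, turned to 0.08 after quantile normalization, 0.07 without loaded Nb3-alloy replicate 1 and 0.05 without non-loaded Nb3-alloy replicate 2.

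Since FPKM is per gene length, the levels of subunits of the same complex can be set side by side within a library. A limit holds for subunits that overlap a neighbouring gene, such as Mcm7, Gins2, Gins4 and Pola2. How reads of their shared stretches were assigned is not known. Orc1 made up 11.4% ± 0.444 of the summed Orc1 to Orc6 level beside non-loaded and 1.87% ± 0.773 beside loaded Nb3 alloy (SD, n = 3), and 11.9% ± 1.704 and 12.5% ± 1.94 beside loaded and non-loaded cpTi. Orc6 went from 16.5% ± 1.45 to 5.302% ± 2.05 beside the alloy, while Orc4 went from 12.6% ± 0.182 to 21.8% ± 2.91. The summed level of the 6 subunits was 36.9 ± 3.63 FPKM beside loaded and 65.1 ± 8.09 FPKM beside non-loaded Nb3 alloy.

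RNA of the MCM helicase fell as a block. All 6 subunits of the ring were called lower, against 25.2% of all tested genes. Of their non-loaded level 8.22% to 19.2% was left. Their loaded and non-loaded Nb3-alloy libraries did not overlap, as for 28% of all tested genes. Mcm2 (ENSRNOG00000016316, chromosome 4, 121346434 to 121360847) measured 9.09, 9.31 and 9.61 FPKM beside loaded and 47.9, 63.5 and 73.6 FPKM beside non-loaded Nb3 alloy, and 63.1, 42.9 and 51.7 FPKM beside loaded and 60.4, 58.3 and 50.2 FPKM beside non-loaded cpTi. Loaded Nb3-alloy libraries were within 1 FPKM of each other, and the other 9 lay between 42.9 and 73.6 FPKM; the log2 difference was -2.58 (SE 0.17, adjusted p = 1.33e-06). Mcm3 measured 5.42, 6.78 and 5.27 FPKM beside loaded and 44.9, 56.8 and 61.3 FPKM beside non-loaded Nb3 alloy, and 54.3, 36.4 and 43.9 FPKM beside loaded and 63.6, 58.9 and 43.2 FPKM beside non-loaded cpTi. Mcm4 measured 5.36, 4.76 and 5.57 FPKM beside loaded and 29.6, 37.1 and 40.8 FPKM beside non-loaded Nb3 alloy, and 36.7, 25.7 and 27.6 FPKM beside loaded and 38.7, 35.1 and 30.6 FPKM beside non-loaded cpTi. Both showed the same layout, at -3.01 (SE 0.19, adjusted p = 8.63e-07) and -2.55 (SE 0.16, adjusted p = 8.63e-07). Mcm5 (ENSRNOG00000014336, chromosome 19, 13483066 to 13504389), which sits beside Mcm2 at the gate where the ring opens, fell most of the 6. It measured 3.43, 6.55 and 4.45 FPKM beside loaded and 42.8, 61.1 and 71.7 FPKM beside non-loaded Nb3 alloy, and 52.1, 38.1 and 44.1 FPKM beside loaded and 58.8, 53.4 and 42.5 FPKM beside non-loaded cpTi, a mean 12.2-fold lower with loading and a difference of -3.36 (SE 0.23, adjusted p = 1.6e-06). Mcm6 measured 5.804, 4.17 and 5.801 FPKM beside loaded and 34.8, 50.9 and 53.6 FPKM beside non-loaded Nb3 alloy, and 47.3, 30.7 and 38.2 FPKM beside loaded and 46.8, 44.7 and 37.5 FPKM beside non-loaded cpTi. Its difference was -2.91 (SE 0.20, adjusted p = 1.6e-06). Mcm7 measured 10.3, 13.1 and 13.2 FPKM beside loaded and 49.5, 71.5 and 69.6 FPKM beside non-loaded Nb3 alloy, and 62.5, 43.3 and 55.4 FPKM beside loaded and 64.03, 64.5 and 49.4 FPKM beside non-loaded cpTi, and it fell least of the 6, by 2.28 (SE 0.19, adjusted p = 6.11e-06). In the deposited table Mcm7 overlaps Cops6 on the other strand over 4160 bases, and the sources used here do not say whether counting used strand. Cops6, a signalosome subunit, was at 33.9 ± 2.55 FPKM beside loaded and 29.4 ± 2.42 FPKM beside non-loaded Nb3 alloy (log2 difference 0.20, adjusted p = 0.155).

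Within the helicase, the shares of the subunits were not the same in all groups. The sum of Mcm2 to Mcm7 was 42.7 ± 2.84 FPKM beside loaded and 320.3 ± 63.1 FPKM beside non-loaded Nb3 alloy, and 265 ± 49.6 and 300.3 ± 41.5 FPKM beside loaded and non-loaded cpTi (SD, n = 3 each). Mcm7 supplied 28.6% ± 2.07 of the sum beside loaded Nb3 alloy, against 19.9% ± 1.11 beside this alloy without loading and 20.3% ± 0.793 and 19.7% ± 0.644 beside cpTi with and without loading. Mcm5 supplied 11.2% ± 3.105 beside loaded Nb3 alloy, against 18.1% ± 1.12, 16.98% ± 0.5298 and 17.1% ± 0.493 in the same order. The mean share of Mcm2 lay between 18.8% and 21.9% in the 4 groups and that of Mcm4 between 11.2% and 12.3%. These shares were not tested, and how reads of the stretch shared by Mcm7 and Cops6 were assigned is not known.

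**Figure D3:**
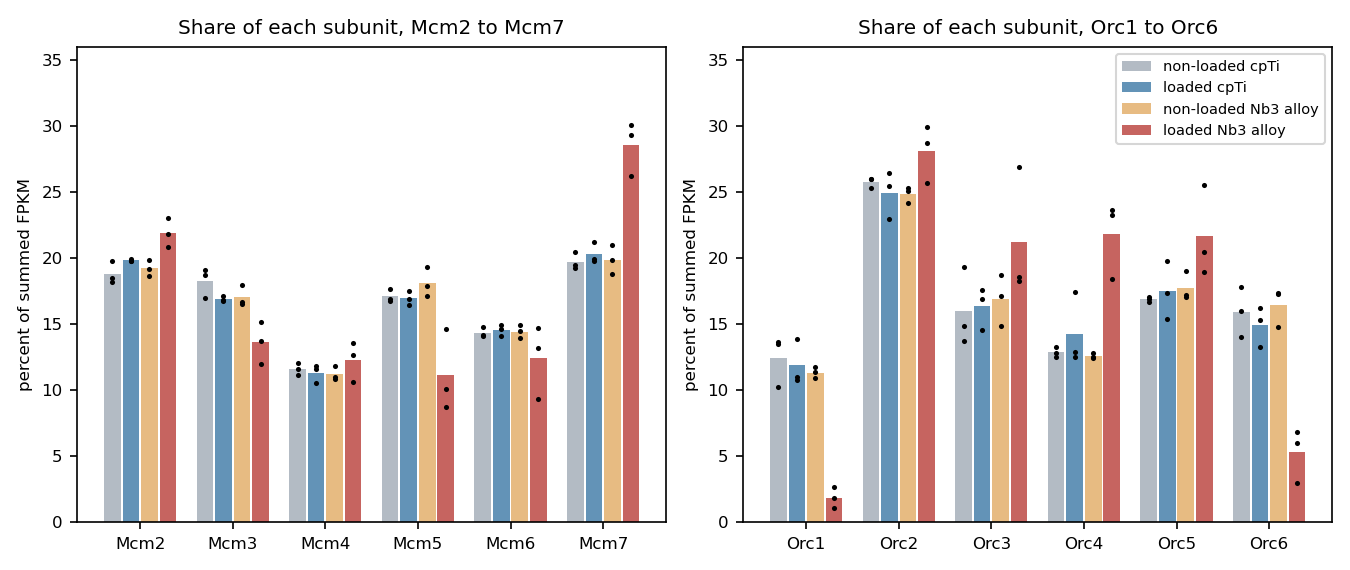
Share of each subunit in the summed FPKM of its complex, in percent, for Mcm2 to Mcm7 and for Orc1 to Orc6 in the 4 groups; bars are means and points are the 3 libraries. Beside loaded Nb3 alloy Orc1 holds 1.87% ± 0.773 and Mcm7 28.6% ± 2.07 of their sums.

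Of the 6 genes whose products switch the helicase on, 5 were called lower and the Cdc45 row of the row rule higher. The shares over all tested genes were 25.2% called lower and 20.7% higher. Mcm10, which helps the paired helicases part, went from 10.1 ± 1.63 to 0.739 ± 0.138 FPKM (SD, n = 3 each), a log2 difference of -2.66 (SE 0.19, adjusted p = 1.92e-06). Gins1, a subunit of the 4-part GINS complex, measured 0.977, 1.94 and 0.9299 FPKM beside loaded and 9.09, 20.04 and 15.9 FPKM beside non-loaded Nb3 alloy, and 15.5, 8.16 and 13.5 FPKM beside loaded and 16.1, 16.01 and 15.2 FPKM beside non-loaded cpTi. It fell by 2.77 (SE 0.29, adjusted p = 2.93e-05), the largest step among the GINS genes, and Gins3 fell by 2.03 (SE 0.23, adjusted p = 4.85e-05). Gins4 measured 2.24, 4.25 and 2.6004 FPKM beside loaded and 4.41, 6.71 and 7.31 FPKM beside non-loaded Nb3 alloy, and 5.48, 3.12 and 5.01 FPKM beside loaded and 5.15, 6.14 and 6.98 FPKM beside non-loaded cpTi. Its highest loaded and lowest non-loaded Nb3-alloy libraries lay next to each other, at 4.25 and 4.41 FPKM, and the difference of -0.83 (SE 0.24, adjusted p = 0.0154) lost its call without loaded Nb3-alloy replicate 1 (adjusted p = 0.0609) and without non-loaded Nb3-alloy replicate 2 (0.0513) or 3 (0.0639). Gins2 had the lowest level of the 44 in the other groups, with 2.68 ± 0.654 FPKM without and 0.952 ± 0.2704 FPKM with loading beside Nb3 alloy (-0.91). Both Gins2 and Gins4 overlap a more abundant neighbour on the same strand. For Gins2 this is Emc8, which covers its whole span of 12570 bases, and for Gins4 it is Golga7, over 15173 bases. Emc8 was at 0.15 (adjusted p = 0.575) and Golga7 rose by 0.34 (adjusted p = 0.0488) in the same comparison, and the sources used here do not say how reads of shared stretches were assigned. On the other strand Gins2 also shares 2689 bases with Gse1, a gene at a higher level, which fell by 1.64 (adjusted p = 6.88e-05). Gins1 made up 45.8% ± 2.94 of the summed GINS level without and 19.1% ± 3.48 with loading beside Nb3 alloy, and Gins4 19.4% ± 2.69 and 45.7% ± 4.3002.

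Cdc45, the helicase partner that travels with MCM and GINS, stands on 2 rows of the deposited table that moved in opposite directions. The row with the higher mean over the 12 libraries (11.3 against 11.01 FPKM), which the rule takes, is ENSRNOG00000050071, chromosome 11, 82211475 to 82214992, and the description in the same table names cell division cycle 45 but gives Cldn5 as the matching protein. Claudin-5 is a tight-junction protein of blood vessel lining. The other row, ENSRNOG00000070046 on chromosome 11, 82185473 to 82210619, carries CDC45 as the matching protein and lies next to it on the opposite strand, without overlap. The row matched to Claudin-5 measured 20.3, 15.8 and 24.7 FPKM beside loaded and 6.798, 7.21 and 4.13 FPKM beside non-loaded Nb3 alloy, and 7.601, 12.9 and 9.96 FPKM beside loaded and 7.33, 11.4 and 7.39 FPKM beside non-loaded cpTi. It rose by 1.60 (SE 0.25, adjusted p = 0.000438) beside loaded Nb3 alloy, as did 7 of the 8 endothelial markers above. The row matched to CDC45 measured 2.103, 0.724 and 1.404 FPKM beside loaded and 11.6, 17.6 and 17.5 FPKM beside non-loaded Nb3 alloy, and 12.1, 8.85 and 11.4 FPKM beside loaded and 19.1, 16.5 and 13.2 FPKM beside non-loaded cpTi. It fell by 2.80 (SE 0.24, adjusted p = 6.64e-06), and 9.06% of its non-loaded mean was left. The choice between the rows was made after their values were seen, so counts are given with each.

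**Figure D4:**
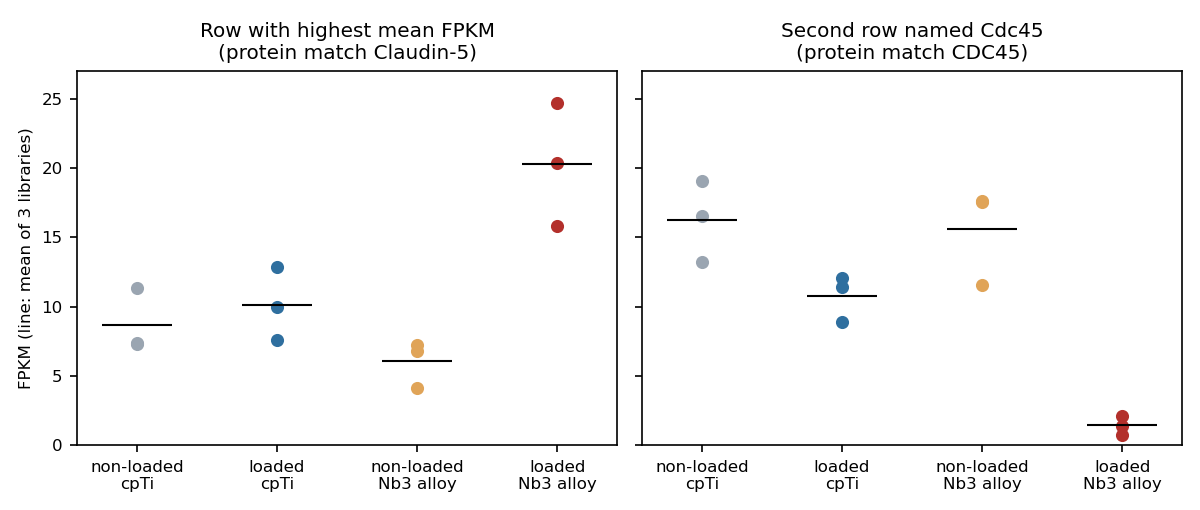
FPKM of the 2 rows that carry the symbol Cdc45, in the 4 groups, with 1 point per library and a line at each mean. Beside loaded Nb3 alloy the row matched to Claudin-5 stands at 20.3 ± 4.46 FPKM and the row matched to CDC45 at 1.41 ± 0.6899 FPKM (mean ± SD, n = 3).

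All 8 polymerase and primase genes were called lower beside loaded Nb3 alloy, against 25.2% of all tested genes. Pole2, the second subunit of the leading-strand polymerase epsilon, measured 0.849, 0 and 0.892 FPKM beside loaded and 8.42, 11.3 and 8.53 FPKM beside non-loaded Nb3 alloy, and 9.57, 6.29 and 7.19 FPKM beside loaded and 11.9, 9.67 and 8.25 FPKM beside non-loaded cpTi. Loaded Nb3-alloy replicate 2 had no read on Pole2, against 29 and 32 reads in replicates 1 and 3, and the difference was -2.77 (SE 0.25, adjusted p = 1.23e-05). The catalytic subunit Pole, which copies the leading strand, fell by 2.45 (SE 0.17, adjusted p = 1.36e-06), from 9.93 ± 1.76 to 0.995 ± 0.258 FPKM. Of polymerase delta, which copies the lagging strand, the catalytic subunit Pold1 fell by 2.09 (SE 0.18, adjusted p = 9.43e-06) and the subunit Pold2 by 1.11 (SE 0.17, adjusted p = 0.000455). The polymerase alpha subunits fell by 1.88 (SE 0.17, adjusted p = 9.72e-06) for Pola1 and 2.31 (SE 0.18, adjusted p = 4.5e-06) for Pola2. Pola2 shares 7510 bases on the same strand with Cdc42ep2, which rose by 1.13 (SE 0.22, adjusted p = 0.00162 by limma). Of the primase subunits, which make the RNA start of each primer, Prim1 went from 23.1 ± 9.6997 to 6.48 ± 0.656 FPKM (-1.60). Prim2 measured 4.704, 5.03 and 5.35 FPKM beside loaded and 6.76, 8.2005 and 7.88 FPKM beside non-loaded Nb3 alloy, and 8.53, 5.46 and 8.97 FPKM beside loaded and 8.17, 7.76 and 8.24 FPKM beside non-loaded cpTi. Its difference of -0.51 (SE 0.16, adjusted p = 0.0222) was the smallest of the 8 and lost its call after quantile normalization (adjusted p = 0.0634) and without loaded Nb3-alloy replicate 1 (0.0657) or non-loaded Nb3-alloy replicate 2 (0.069) or 3 (0.0667). Within the polymerase alpha and primase complex Prim2 made up 13.5% ± 2.48 of the summed level without and 30.8% ± 0.788 with loading beside Nb3 alloy.

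Genes of the sliding clamp and its loader fell less than those of the helicase. Pcna (ENSRNOG00000021264, chromosome 3, 119498810 to 119502995), the ring that holds polymerases on DNA, had the highest level of the 44 genes in all 4 groups. It measured 35.4, 38.6 and 35.4 FPKM beside loaded and 102, 183 and 166 FPKM beside non-loaded Nb3 alloy, and 155, 107 and 134 FPKM beside loaded and 149, 136 and 131 FPKM beside non-loaded cpTi. Loaded Nb3-alloy libraries lay within a narrow 35.4 to 38.6 FPKM and the other 9 between 102 and 183 FPKM; 24.3% of the non-loaded mean was left and the difference was -1.97 (SE 0.21, adjusted p = 3.84e-05). All 5 subunits of replication factor C, which opens the clamp, were called lower, against 25.2% of all tested genes. Rfc4 fell most and measured 11.1, 7.57 and 7.36 FPKM beside loaded and 31.8, 45.8 and 41.6 FPKM beside non-loaded Nb3 alloy, and 45.5, 28.7 and 33.4 FPKM beside loaded and 38.4, 45.3 and 34.7 FPKM beside non-loaded cpTi, a difference of -2.08 (SE 0.21, adjusted p = 2.39e-05). Rfc1, the large subunit, fell least and measured 6.54, 8.21 and 7.37 FPKM beside loaded and 12.1, 17.7 and 15.5 FPKM beside non-loaded Nb3 alloy, and 13.1, 10.9 and 12.3 FPKM beside loaded and 14.8, 13.1 and 14.1 FPKM beside non-loaded cpTi, a difference of -0.93 (SE 0.14, adjusted p = 0.000365). Rfc2, Rfc3 and Rfc5 lay between, at -1.46, -1.56 and -1.35.

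Replication protein A coats unwound single strands, in repair as well as in replication. Of the non-loaded RNA level of its genes, 31.8% to 46.3% was left. Rpa2 measured 9.68, 8.16 and 10.05 FPKM beside loaded and 20.6, 35.3 and 31.9 FPKM beside non-loaded Nb3 alloy, and 26.9, 21.1 and 21.9 FPKM beside loaded and 28.4, 28.6 and 25.95 FPKM beside non-loaded cpTi, a difference of -1.52 (SE 0.18, adjusted p = 7.84e-05). Rpa1 measured 10.3, 13.4 and 12.5 FPKM beside loaded and 20.2, 29.8 and 27.99 FPKM beside non-loaded Nb3 alloy, and 22.9, 20.8 and 23.4 FPKM beside loaded and 25.97, 25.3 and 25.7 FPKM beside non-loaded cpTi, a difference of -1.04 (SE 0.15, adjusted p = 0.000236). No loaded Nb3-alloy library of either gene reached the lowest of the other 9. Rpa3, the smallest subunit, fell by 1.32 (SE 0.32, adjusted p = 0.00672) with the widest spread of the 3, at 26.1, 17.7 and 12.3 FPKM in the loaded and 30.3, 61.8 and 52.1 FPKM in the non-loaded libraries. Of the enzymes that finish the lagging strand, Lig1, the ligase that seals the fragments, measured 9.36, 8.64 and 10.2 FPKM beside loaded and 36.8, 39.5 and 47.4 FPKM beside non-loaded Nb3 alloy, and 37.5, 29.6 and 34.2 FPKM beside loaded and 44.4, 44.7 and 33.6 FPKM beside non-loaded cpTi. It fell by 2.02 (SE 0.15, adjusted p = 2.39e-06). Fen1, the nuclease that trims their flaps, measured 12.5, 10.2 and 8.39 FPKM beside loaded and 20.1, 28.4 and 31.6 FPKM beside non-loaded Nb3 alloy, and 25.4, 19.8 and 24.7 FPKM beside loaded and 29.9, 26.5 and 24.1 FPKM beside non-loaded cpTi, and it fell by 1.28 (SE 0.19, adjusted p = 0.000283).

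The genes that supply DNA building blocks fell as far as those of the helicase, with 4.65% to 16.4% of the non-loaded level left. Rrm2 (ENSRNOG00000054286, chromosome 6, 41340557 to 41346773), the subunit of ribonucleotide reductase that is made for S phase, had the largest log2 difference of all 44. It measured 2.36, 3.34 and 2.198 FPKM beside loaded and 54.1, 44.4 and 71.2 FPKM beside non-loaded Nb3 alloy, and 58.1, 34.2 and 48.9 FPKM beside loaded and 61.9, 49.7 and 47.1 FPKM beside non-loaded cpTi. Its loaded Nb3-alloy libraries reached 3.34 FPKM at most and the other 9 libraries 34.2 FPKM at least, a mean 21.5-fold lower with loading beside Nb3 alloy and a difference of -3.97 (SE 0.22, adjusted p = 5.02e-07). Rrm1, its large partner subunit, fell by 2.51 (SE 0.22, adjusted p = 7.75e-06). Rrm2 made up 40.5% ± 7.28 of the summed Rrm1 and Rrm2 level without and 16.03% ± 0.462 with loading beside Nb3 alloy, and 40.6% ± 1.38 and 39.99% ± 1.84 beside loaded and non-loaded cpTi. Tk1, the thymidine kinase of S phase, fell by 3.19 (SE 0.21, adjusted p = 9.49e-07), from 70.7 ± 12.2 to 6.83 ± 1.28 FPKM. It overlaps Syngr2 over 2953 bases and Afmid over 741 bases on the other strand, which stood at -0.37 (adjusted p = 0.0813) and -0.99 (adjusted p = 0.00202). Tyms, which makes thymidylate, measured 6.54, 5.96 and 7.01 FPKM beside loaded and 32.8, 38.2 and 49.2 FPKM beside non-loaded Nb3 alloy, and 38.1, 28.8 and 36.4 FPKM beside loaded and 48.6, 32.6 and 34.5 FPKM beside non-loaded cpTi. On the log2 scale it fell least of the 4, by 2.43 (SE 0.19, adjusted p = 3.19e-06), again without overlap. On mean FPKM 16.2% was left for Tyms and 16.4% for Rrm1.

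Across roles, the members differed widely in how much was left beside loaded Nb3 alloy. With the row matched to CDC45, 9 of the 44 kept under 10% of their non-loaded mean, 18 kept 10% to 25%, 12 kept 25% to 50% and 5 kept more (Orc2, Orc3, Orc4, Orc5 and Prim2). The median share left was 11.96% for the genes of helicase activation, 12.97% for the MCM ring, 12.9% for the building-block enzymes, 18.6% for origin licensing, 20.7% for polymerases and primase, 30.8% for the lagging-strand enzymes, 32.3% for the clamp and its loader and 38.9% for replication protein A. These shares rest on FPKM without the added 1, so low genes count in full.

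Beside cpTi, loading came with no call among the 44 genes. Over all tested genes 1 was called (0.00655%), and limma gave 1062 genes at an unadjusted p under 0.05, of which 3 were replication genes. Of the 44 genes 41 were lower with loading, as were 54.6% of all tested genes, and the median log2 difference was -0.20. Libraries did not overlap, with loading lower, for 6 of the 44 and for 9.4% of all tested genes. The median was -0.07 without loaded cpTi replicate 2 and -0.31 without loaded cpTi replicate 1, so its size rested on single libraries. The 3 genes with the smallest p were Pold1 at 20.7, 16.1 and 22.2 FPKM with and 33.6, 30.4 and 22.3 FPKM without loading (-0.52 (SE 0.18, adjusted p = 0.666)), Rfc2 at 22.5, 16.3 and 20.4 and 26.6, 24.1 and 24.9 FPKM (-0.35 (SE 0.14, adjusted p = 0.689)), and Mcm10 at 10.1, 5.55 and 8.73 and 11.8, 11.5 and 10.1 FPKM (-0.45 (SE 0.19, adjusted p = 0.692)). The row matched to CDC45 was at -0.55 (SE 0.24, adjusted p = 0.693). The 95% intervals for single genes still allowed changes in either direction for most of them: -0.49 to 0.27 for Mcm2, -0.71 to 0.32 for Mcm5, -0.55 to 0.38 for Pcna, -0.74 to 0.09 for Cdc6 and -0.68 to 0.30 for Rrm2. No gene of the marker lists was called in this comparison, and their part in it was not tested. Below 0 lay all 10 mitosis genes (median -0.40), 8 of 9 erythroid (-0.33), all 8 tested granulocyte-precursor (-0.54), all 10 B-precursor (-0.72) and 3 of 4 tested epithelial genes (-0.96). Above 0 lay all 10 osteoblast and osteocyte genes (1.14), 8 of 10 fibroblast and ligament (0.35), 6 of 8 endothelial (0.11) and 7 of 8 macrophage genes (0.58). The mitosis sums were 269 to 434 FPKM with and 418 to 524 FPKM without loading, and the erythroid sums 1459 to 2874 and 2248 to 3088 FPKM. The B-precursor sums were 223 to 399 FPKM with and 483 to 537 FPKM without loading, and the osteoblast and osteocyte sums 12556 to 14716 and 4364 to 6778 FPKM. In loaded cpTi replicate 2, where 42 of the 44 replication genes were lowest, the mitosis, erythroid, B-precursor and macrophage sums were also the lowest of the 3, while the granulocyte-precursor, osteoblast and osteocyte, fibroblast and ligament, and endothelial sums were the highest.

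**Figure D5:**
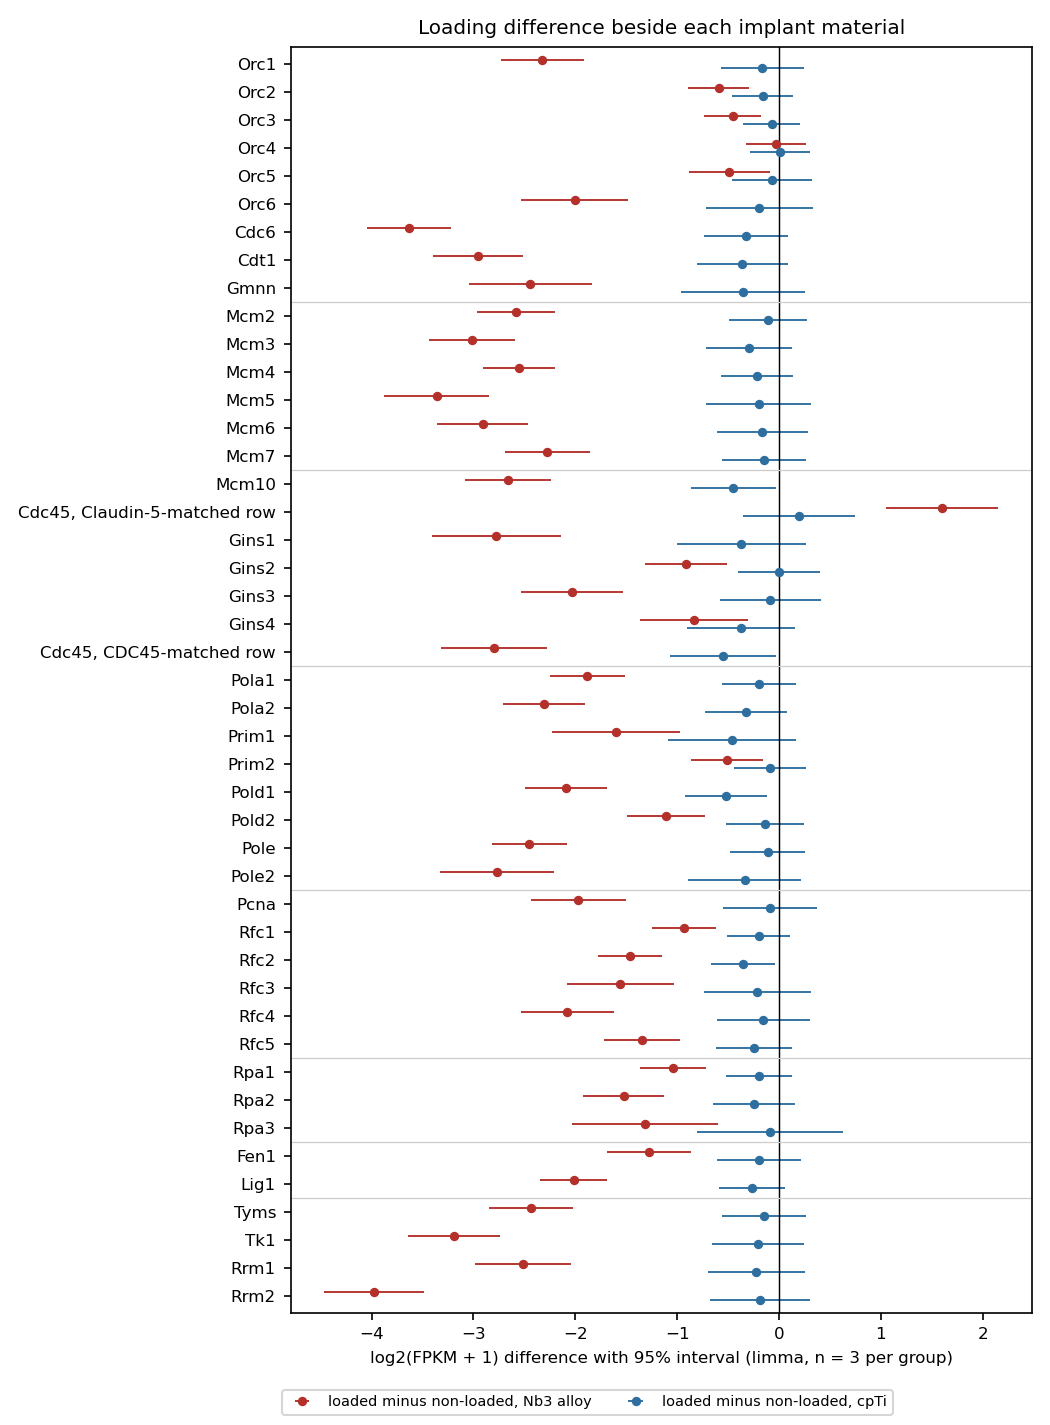
Difference with loading for each of the 44 replication genes, and for both Cdc45 rows, as log2(FPKM + 1) with its 95% interval, beside Nb3 alloy (red) and beside cpTi (blue), from 3 libraries per group. Beside Nb3 alloy the points reach from -3.97 for Rrm2 to -0.03 for Orc4, which is not called and turns above 0 after quantile normalization, and to 1.60 for the row matched to Claudin-5; beside cpTi they lie between -0.55 and 0.20.

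Under loading, bone beside Nb3 alloy had lower RNA levels of the replication machinery than bone beside cpTi. Of the 44 genes 39 were lower and 1 row higher beside Nb3 alloy, against 18.9% of all tested genes lower and 14.7% higher, with a median of -1.76. With the row matched to CDC45, 40 were lower and none higher. This comparison uses the same 3 loaded Nb3-alloy libraries as the loading comparison, so the values are given side by side and are no separate support. The difference was -3.71 (SE 0.22, adjusted p = 1.3e-06) for Rrm2, -3.36 (SE 0.19, adjusted p = 8.29e-07) for Cdc6, -3.00 (SE 0.23, adjusted p = 5.46e-06) for Mcm5, -3.05 (SE 0.21, adjusted p = 2.29e-06) for Tk1 and -1.81 (SE 0.21, adjusted p = 0.00011) for Pcna. Not called were Orc3 (-0.32, adjusted p = 0.0689), Orc4 (-0.09, 0.628), Orc5 (-0.38, 0.127) and Gins4 (-0.46, 0.163). Orc3 was called after scaling to total reads (adjusted p = 0.0143), without loaded Nb3-alloy replicate 2 (0.0322) and without non-loaded cpTi replicate 3 (0.0476), and Orc4 stood at 0.00 after quantile normalization and without loaded Nb3-alloy replicate 1. Among the weakest calls, Orc2 (-0.51 (SE 0.14, adjusted p = 0.0148)) was lost without loaded cpTi replicate 3 (0.061). Rpa3 (-1.20 (SE 0.32, adjusted p = 0.0156)) was lost without loaded Nb3-alloy replicate 3 (0.0537) or loaded cpTi replicate 1 (0.066) or 3 (0.0585). Prim2 (-0.50 (SE 0.16, adjusted p = 0.0339)) was lost without loaded Nb3-alloy replicate 1 or 2 or loaded cpTi replicate 1 or 3 (adjusted p = 0.0622 to 0.137), after quantile normalization (0.0907), without the filter on low values (0.0536) and in a fit of the compared groups alone (0.108). The 1 row that was higher, matched to Claudin-5 (0.94 (SE 0.25, adjusted p = 0.0147)), was not called without loaded cpTi replicate 1 (0.0645) or after scaling to total reads (0.0666), which moved the calls over all genes from 2884 lower and 2239 higher to 3679 and 1354. All 9 erythroid, all 8 granulocyte-precursor, all 10 B-precursor and all 10 mitosis markers tested were lower too, 7 of 10 fibroblast and ligament markers and 6 of 8 endothelial markers were higher, and the part of these cells in the result was not tested.

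Without loading, the materials gave no called difference in any of the 44 genes. No gene of the whole table was called (0% of 15268), and limma gave 470 genes at an unadjusted p under 0.05, none of them a replication gene. The median of the 44 was 0.01. Single genes were measured with 95% intervals of -0.27 to 0.49 for Mcm2, -0.35 to 0.68 for Mcm5, -0.39 to 0.54 for Pcna, -0.47 to 0.36 for Cdc6 and -0.41 to 0.57 for Rrm2. With 3 libraries per group, differences within those intervals were not excluded. The 3 rows with the smallest p were the Cdc45 row matched to Claudin-5 (-0.47), Gins3 (0.30) and Mcm10 (-0.15), each at an adjusted p of 1.

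The loading difference itself differed between the materials. The interaction, loading beside Nb3 alloy minus loading beside cpTi, was called lower for 35 of the 44 genes and higher for 1 row, against 11.8% and 8.42% of all tested genes, with a median of -1.85. With the row matched to CDC45, 36 were lower and none higher. All 6 MCM subunits passed, as did all 4 building-block genes, all 6 of the clamp and its loader, 6 of 8 polymerase and primase genes and 5 of 9 licensing genes. The difference between the materials was -3.79 (SE 0.31, adjusted p = 4.28e-05) for Rrm2, -3.31 (SE 0.27, adjusted p = 3.65e-05) for Cdc6, -3.16 (SE 0.33, adjusted p = 0.000131) for Mcm5, -2.47 (SE 0.25, adjusted p = 0.000105) for Mcm2 and -1.88 (SE 0.30, adjusted p = 0.00183) for Pcna. The genes that did not pass were Orc2 (-0.43), Orc3 (-0.38), Orc4 (-0.04, above 0 after quantile normalization at 0.05), Orc5 (-0.42), Gins4 (-0.46), Prim1 (-1.14), Prim2 (-0.42) and Rpa3 (-1.23). Prim1 and Rpa3 stood near the threshold (adjusted p = 0.0708 and 0.0836), and both passed without non-loaded Nb3-alloy replicate 1 (0.00379 and 0.0344), the library that was lowest of its group for 43 of the 44 genes. Without loaded cpTi replicate 2, Prim2 (0.0289) and Rpa3 (0.0332) passed. Rpa3 also passed without loaded Nb3-alloy replicate 1 (0.0459), and Prim1 and Rpa3 after scaling to total reads (0.0433 and 0.0462). That scaling moved the calls over all genes from 1804 lower and 1285 higher to 2380 and 845, and left the row matched to Claudin-5 (1.41 (SE 0.35, adjusted p = 0.0185)) without a call (0.0585). Gins2 (-0.91 (SE 0.26, adjusted p = 0.0295)) and Rfc1 (-0.73 (SE 0.20, adjusted p = 0.0261)) were both lost, with adjusted p up to 0.0768 and 0.0696, when loaded Nb3-alloy replicate 1, replicate 1 or 3 of loaded cpTi, or replicate 2 or 3 of either non-loaded group was left out, and Gins2 also without loaded Nb3-alloy replicate 3. Pold2 (-0.98 (SE 0.25, adjusted p = 0.0187)) was lost without loaded cpTi replicate 1 (0.0523). Of the markers tested, the interaction was called lower for all 9 erythroid, all 8 granulocyte-precursor, all 10 mitosis, 6 of 10 B-precursor, 1 of 4 epithelial and 1 of 8 macrophage genes, higher for 6 of 10 fibroblast and ligament and 6 of 8 endothelial genes, and for none of 10 osteoblast and osteocyte genes. Their part in the result was not tested.

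Other genes of the same pathway, taken from lists of symbols, moved with the machinery beside loaded Nb3 alloy. Of 73 found among the deposited genes, 72 were tested. Of those, 61 fell and 3 rose, with a median of -1.38, against 25.2% of all tested genes called lower and 20.7% higher. All 9 further genes of replication initiation fell. Wdhd1, which links the helicase to polymerase alpha, went from 18.7 ± 2.96 to 1.76 ± 0.2197 FPKM (SD, n = 3 each), a log2 difference of -2.83 (SE 0.18, adjusted p = 8.63e-07). Dbf4, the activator of the kinase that fires origins, went from 19.95 ± 1.77 to 2.25 ± 0.762 FPKM (-2.71 (SE 0.21, adjusted p = 3.02e-06)). Of 18 further fork genes 15 fell, led by Top2a, the topoisomerase that untangles copied DNA, from 89.2 ± 17.1 to 3.42 ± 0.517 FPKM (-4.34 (SE 0.19, adjusted p = 1.33e-07)), and Clspn, which carries the checkpoint signal from stalled forks, from 14.9 ± 3.39 to 0.754 ± 0.2699 FPKM (-3.17 (SE 0.21, adjusted p = 9.93e-07)). Of 10 further genes of nucleotide supply 9 fell, with Dut, which clears dUTP, at -2.72 (SE 0.22, adjusted p = 4.49e-06) and the deoxycytidine kinase gene Dck at -1.98 (SE 0.26, adjusted p = 0.000162). All 10 genes of chromatin duplication fell, with Uhrf1, which guides maintenance methylation, at -3.84 (SE 0.21, adjusted p = 4.61e-07) and the histone chaperone gene Asf1b at -3.71 (SE 0.22, adjusted p = 6.91e-07).

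Of the 25 tested control genes of the step from G1 to S phase, 18 fell and 3 rose. Over all tested genes 25.2% were called lower and 20.7% higher. No gene of the other 4 pathway lists was called higher. E2f8, an E2F family repressor, went from 20.3 ± 4.73 to 0.291 ± 0.221 FPKM (-4.03 (SE 0.20, adjusted p = 2.91e-07)), and Ccna2, which encodes the cyclin of S phase, from 49.2 ± 6.496 to 2.85 ± 0.552 FPKM (-3.70 (SE 0.20, adjusted p = 4.1e-07)). Cdkn1a, which encodes the cell cycle inhibitor p21, rose from 4.29 ± 0.587 to 20.7 ± 8.76 FPKM (1.97 (SE 0.29, adjusted p = 0.000275)) and was at 4.96 ± 2.13 FPKM beside loaded and 3.48 ± 0.477 FPKM beside non-loaded cpTi. Ccnd1, which encodes a cyclin of G1 phase, rose from 8.42 ± 3.84 to 25.2 ± 3.33 FPKM (1.54 (SE 0.25, adjusted p = 0.000603)). The third gene that rose was Cdkn1c, an inhibitor of the same family as p21, at 0.80. Beside cpTi none of the 72 genes was called with loading, and their median was -0.22. By limma 8 of them had an unadjusted p under 0.05, as did 1062 of all 15268 tested genes.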

How the data were processed

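RNA was measured in 12 libraries of rat peri-implant bone. Per the labels' protocols, RNA was extracted with TRIzol and polyadenylated RNA went into NEBNext Ultra libraries. Tools named in the submitters' processing notes are HISAT2 2.0.5, DESeq2 1.20.0, featureCounts 1.5.0-p3, CASAVA 1.8 and fastp; each tool's role, the genome build, the annotation and the use of strand were not given in the sources used here.

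The authors deposited 1 table of FPKM for 33801 genes. Its header names no unit. FPKM was taken from the values, because value times gene length was a whole multiple of 1 read's worth, within 0.01 read, in every library. Such steps show reads over gene length with 1 factor per library, but not how that factor was set. The depth implied by the factor was 0.809 times the reads on genes in loaded Nb3-alloy replicate 2. In the other libraries it was 0.981 to 1.12 times. Reads on genes recovered this way were 12.9 to 22.3 M per library.

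Genes at 1 FPKM or more in at least 3 libraries were tested (15268; 18533 were not). limma 3.58.1 (R 4.3.3, statmod 1.5.0) was fitted to log2(FPKM + 1) with 1 mean per group, 8 residual degrees of freedom and trended, robust moderation. A call needs an adjusted p (Benjamini-Hochberg, over all tested genes) under 0.05. The 5 comparisons were loading beside each material, material under each loading state, and their interaction. The procedure was also run on simulated data, with independent noise for each gene and few genes changed. That setting differs from these libraries, so it does not measure error rates in them. Tables and plots used Python 3.11.15, numpy 2.4.6, pandas 2.3.3 and matplotlib 3.10.9.

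The replication genes and all lists were chosen with earlier results of these data known. Every replication gene may be named. Library values are given for the largest and smallest change within each role and for Pcna, Mcm2 to Mcm7, Orc1 to Orc6 and Rrm2. From each pathway list the 2 genes called lower and the 2 called higher with the smallest p are named, and from comparisons without a call the 3 genes with the smallest p. Other genes named, such as Cops6 and Cdkn1c, were chosen after their values were seen. The symbols Ticrr, Mcm9, Rnaseh2c and E2f1 were not matched. Alternatives were recomputed size factors, total reads, quantile normalization, a pseudocount of 0.1, no filter, limma-voom on recovered reads, a replicate block, the compared groups alone, a non-robust fit and each library left out. The row of Cdc45 that matches CDC45 was added after seeing the data.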

Additional observations from a re-analysis of the deposited data

Results flagged for a closer look

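The loading difference beside Nb3 alloy differed from that beside cpTi, by the interaction term of limma over 12 libraries, for 35 replication genes by the row rule, for both Cdc45 rows, and in each case at an adjusted p under 0.05. Values are the log2 difference beside Nb3 alloy minus that beside cpTi. In origin licensing they were -2.16 for Orc1, -1.81 for Orc6, -3.31 for Cdc6, -2.60 for Cdt1 and -2.09 for Gmnn. In the helicase ring they were -2.47 for Mcm2, -2.72 for Mcm3, -2.33 for Mcm4, -3.16 for Mcm5, -2.75 for Mcm6 and -2.13 for Mcm7. Among its activators Mcm10 stood at -2.21, Gins1 at -2.41, Gins2 at -0.91 and Gins3 at -1.95. The Cdc45 row matched to Claudin-5 stood at 1.41 and the row matched to CDC45 at -2.25.

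Polymerase genes gave -1.68 for Pola1, -1.98 for Pola2, -1.57 for Pold1, -0.98 for Pold2, -2.34 for Pole and -2.43 for Pole2. The clamp and its loader gave -1.88 for Pcna, -0.73 for Rfc1, -1.11 for Rfc2, -1.35 for Rfc3, -1.93 for Rfc4 and -1.10 for Rfc5. Strand-binding and joining genes gave -0.85 for Rpa1, -1.28 for Rpa2, -1.08 for Fen1 and -1.75 for Lig1. The supply of building blocks gave -2.29 for Tyms, -2.99 for Tk1, -2.29 for Rrm1 and -3.79 for Rrm2. Over all tested genes this term was called lower for 11.8% and higher for 8.42%. Among markers in this term, 9 of 9 erythroid, 8 of 8 granulocyte-precursor, 10 of 10 mitosis and 6 of 10 B-precursor genes were called lower. Called higher were 6 of 10 fibroblast and ligament and 6 of 8 endothelial genes. The part of these markers in it was not tested.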

How the results depend on the processing

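The counts of genes called lower stayed within 1.5 times of the reported ones under every alternative run. Taking the Cdc45 row matched to CDC45 left 0 genes called higher for loading beside Nb3 alloy, for material under loading and for the interaction; scaling to total reads left 0 for the last 2. The median for loading beside Nb3 alloy was -2.23 with a pseudocount of 0.1 and -2.27 by limma-voom, which gave -1.98 for material under loading and -2.06 for the interaction; the cause was not tested. With 1 library left out, 39 to 42 genes were called lower for loading beside Nb3 alloy (medians -2.19 to -1.93), 36 to 40 for material under loading (-1.87 to -1.63; 0 to 1 higher) and 32 to 37 for the interaction (-2.003 to -1.73), and the medians were -0.31 to -0.07 beside cpTi and -0.08 to 0.16 for material without loading. Orc4 changed sign. After quantile normalization it stood at 0.0825 for loading beside Nb3 alloy, 0.00434 for material under loading and 0.0548 for the interaction, and with 1 library left out it ranged from -0.132 to 0.0674, from -0.198 to 0.00156 and from -0.145 to 0.0549, in the same order, above 0 without loaded Nb3-alloy replicate 1. Over single genes and alternatives, 19, 13 and 18 calls were lost and 0, 3 and 7 gained in these 3 comparisons.

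Over 18 pairs of same-numbered libraries the correlation of their deviations was -0.25 to 0.11, with 1 above 0.1. Deviations from means of 3 libraries cannot exclude pairing by number. The labels name no pairing, so the main fit used none and the replicate block was run as an alternative. With the replicate block 41 genes were called lower beside loaded Nb3 alloy (Orc5 lost its call, adjusted p = 0.07), 39 under loading, 0 beside cpTi, 0 without loading and 34 in the interaction (Gins2, adjusted p = 0.0566). With 3 libraries per group the SE of a single gene's difference beside cpTi was 0.13 to 0.32, which limits which changes of single genes can be seen.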

Other observations

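The promoter letters and the loading difference can be set side by side for the 37 replication genes with a RefSeq window. The 18 genes with E2F-like letters had a median log2 difference of -2.44 beside loaded Nb3 alloy, and the 19 without them -1.60. Both sets reached from small to large changes, -3.36 to -0.45 and -3.19 to -0.51. These values take the Cdc45 row matched to CDC45; with the row of the row rule the 19 genes had a median of -1.46 and reached up to 1.60. Orc3 and Orc5, which carry the letters, were among the genes that moved least, and Tk1, which has none of them in its window, among those that moved most. The split was made after the values were known, and it is a description without a test.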
